A study of Mus musculus with 6 samples.

Results

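Mitochondrial ribosomal proteins are the protein part of the ribosome that works inside mitochondria. The genes were taken by name, as every gene whose symbol begins with Mrpl or Mrps followed by a digit, and 78 of the 20659 genes named on the array met that rule. Of these, 49 carry an Mrpl symbol, used for the large subunit, and 29 an Mrps symbol, used for the small subunit. The proteins are encoded in the nucleus, made in the cytosol and imported, and they join ribosomal RNAs that the mitochondrial genome encodes. That ribosome makes the few proteins of the mitochondrial genome, all of them subunits of the oxidative phosphorylation complexes, so it is needed for respiration in liver as in other tissues. A group of its proteins descends from the bacterial ribosome, and others have no bacterial counterpart. A few symbols depart from the present view of the particle: the Mrps18a and Mrps30 proteins were placed in the large subunit by structures, and Mrps36 is now regarded as a component of the 2-oxoglutarate dehydrogenase complex. The grouping below keeps to the symbols.

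The RNA came from liver of male ICR mice, an outbred stock, of 18 to 22 g. Control mice had received saline, and DECB mice deproteinized extract of calf blood, each at 0.08 mL per 20 g into the stomach once a day for 35 days, with 24 mice in groups of 12. Of each group 3 arrays were measured, named control 1, 2 and 3 and DECB 4, 5 and 6, on 1-colour Cy3 arrays. The sample descriptions give 1 day for control and 30 days for DECB, against 35 days elsewhere in the labels. The study also timed how long mice bore hypoxia in closed containers, and the labels do not say on which side of that trial the liver was sampled. They do not say whether each array is a mouse of its own, so the p-values rest on a spread between samples that may be technical.

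Brightness differed by the scan that the file headers record. Scan 1 held control 1 and DECB 6, scan 2 held controls 2 and 3 and DECB 4, and scan 3 held DECB 5. The 75th percentile of signal was 3.75 to 4.04 times the local background in scan 1 and 25 to 30.6 times in the others. Of the 78 genes, 74 to 78 per array were nonetheless well above background. All 7 hepatocyte markers on the list were measured, and their differences between DECB and control had a median of -0.12 on the log2 scale. The neutrophil markers S100a8 and S100a9 were higher in DECB by 1.57 each, with all DECB arrays above all controls, and did not pass the test (limma adjusted p = 0.101 and 0.167), but passed with the scan as a block in the fit (limma adjusted p = 0.0311 and 0.0216). The 3 cholangiocyte markers measured (Sox9, Krt19 and Spp1) were higher by 1.00, 0.76 and 0.68 and did not pass. Of 2 red cell markers measured, the globin gene Hba-a1 was lower by 1.73 with no overlap (limma adjusted p = 0.191). The other was higher by 0.88, with overlap. The endothelial Stab2 passed as lower in the blocked fit alone (limma adjusted p = 0.0465). Median differences were -0.30 over 4 Kupffer cell, -0.16 over 6 endothelial, -0.20 over 6 stellate cell and 0.17 over 4 lymphocyte markers. The part of a different cell makeup in the values below was not tested, and in whole liver fewer cells of a type and less RNA per cell cannot be told apart.

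For 69 of the 78 genes a RefSeq promoter window was at hand, 250 bases before to 50 after the transcript start on the GRCm38.p6 build, with 75 windows in all. The stretches below are shown because they lie before the starts of genes described later: both small subunit genes with the smallest p-values, the gene with the most matches to the NRF1 form, and the gap between the starts of Mrpl46 and Mrps11. Capitals mark CCGGAAG, the core bound by GABP and other ETS factors, in Mrps22 (chr9:98601680-98601799, minus strand). In Mrps27 (chr13:99344679-99344785, plus strand) the capitals read CTTCCGG, which is the same core on the other strand. They mark GCGCA and GCGC parted by 1 base, a form of the NRF1 site, in Mrpl45 (chr11:97315596-97315715, plus strand), and GGGCGG, the SP1 core, in Mrps11 (chr7:78783090-78783130, plus strand). GABP and NRF1 are known for their place in the control of nuclear genes for mitochondria. Each line ends at the base before the start.
Mrps22: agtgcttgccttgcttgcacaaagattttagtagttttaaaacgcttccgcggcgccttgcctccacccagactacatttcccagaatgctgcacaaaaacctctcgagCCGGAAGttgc
Mrps27: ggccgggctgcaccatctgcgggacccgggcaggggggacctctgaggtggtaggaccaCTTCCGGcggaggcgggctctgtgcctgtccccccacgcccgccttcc
Mrpl45: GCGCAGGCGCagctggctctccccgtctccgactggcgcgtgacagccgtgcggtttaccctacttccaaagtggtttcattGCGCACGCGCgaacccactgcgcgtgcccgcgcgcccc
Mrps11: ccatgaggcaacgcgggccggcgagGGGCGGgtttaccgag

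Motifs were searched on both strands in these windows, and a match is a description of letters, not a site. CCGGAAG was in 34.7% of the member windows, against 8.86% of all 32851 windows and 14.4% of the windows of genes tested. The NRF1 form was in 17.3% of member windows, 4.60% of all and 8.09% of those of tested genes. AAGATGGC, a core of the YY1 site, was in 16%, 2.75% and 3.81%. GGGCGG was in 52.0% of member windows, 35.7% of all and 54.4% of those of tested genes. By gene it was in 49.3% of members, 38.2% of all genes and 59.3% of tested genes. The E-box CACGTG was in 9.33% of member windows, 7.15% of all and 9.07% of those of tested genes. Counted by gene, it was in 5 of the 69 members (7.25%), against 8.09% of all genes and 10.6% of tested genes. The ERR half-site CAAGGTCA was in 2.67% of member windows, 1.56% of all and 1.30% of those of tested genes, and the ATF4 form TGATGNAA in 0%, 3.97% and 2.65%. Member windows held 59.0% G and C, and those of tested genes 58.7%. The 25 tested genes with CCGGAAG had a median difference between DECB and control of 0.16, and the 43 without it 0.12. For the NRF1 form these medians were 0.02 over 13 genes with it and 0.19 over 55 without, and for the YY1 core 0.28 over 12 and 0.10 over 56. For GGGCGG they were 0.10 over 34 genes with it and 0.21 over 34 without.

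The comparison of DECB with control asked which liver genes differed after the extract, which the study links to energy metabolism under hypoxia. No mitochondrial ribosomal protein gene passed the test. Signal is given below as log2 relative to each array's 75th percentile, so that 0 is that percentile, and a difference is the DECB mean minus the control mean on this scale. Of 77 genes tested, 54 had a difference above 0 and 23 below, and 63 differed by less than 0.5. Mrpl21 was left out because its probe was well above background on 1 array. The 77 differences ran from -0.54 in Mrpl23 to 1.12 in Mrps27, with a median of 0.13, against -0.03 over all 14804 genes tested.

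By limma with Benjamini-Hochberg adjustment over all genes, 0 of the 77 had an adjusted p under 0.05, against 0.466% of all genes tested (69 of 14804). The smallest adjusted p was 0.273, in Mrps22. At an unadjusted p under 0.05, 3 of the 77 were higher in DECB (Mrps22, Mrps27 and Mrpl19), against 4.22% of all genes, and 0 were lower, against 5.79%. All DECB arrays lay above all control arrays for 9 of the 76 genes with a value on every array, against 7.24% of all genes, and below them for 3, against 9.40%. The share of genes with a difference above 0 was 70.1% of the 77 and 47.5% of all genes. The model's SE ran from 0.25 to 0.66, with a median of 0.34. The 95% interval lay within 2-fold either way for 29 genes, and for 48 it reached beyond, upward in 41 and downward in 14. With 3 arrays a group these data therefore set no 2-fold limit on most of the family.

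**Figure D1:**
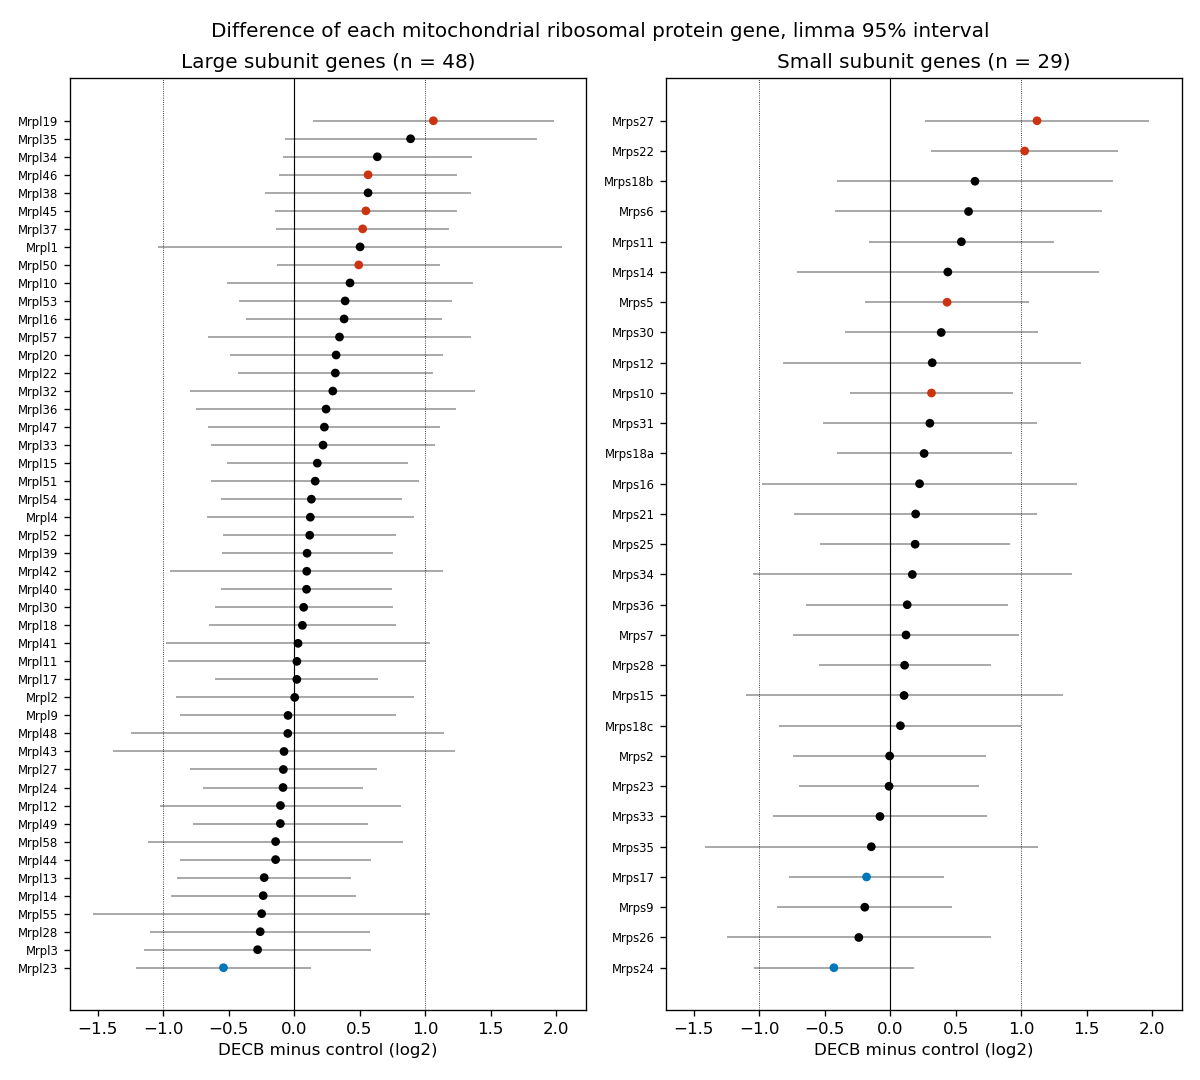
Difference between DECB and control (log2) of each tested gene, 48 of the large and 29 of the small subunit, with limma's 95% interval over 3 control and 3 DECB arrays. Red points mark the 9 genes with all DECB arrays above all controls, blue points the 3 with all below, and dotted lines 2-fold. The intervals of Mrps22, Mrps27 and Mrpl19 leave out 0.

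In the large subunit 33 of 48 tested genes had a difference above 0, with a median of 0.11. Mrpl19, whose bacterial counterpart sits where the subunits meet, was at -2.34, -1.37 and -1.21 in controls 1 to 3 and at -0.42, -0.35 and -0.95 in DECB 4 to 6. All DECB arrays were above all controls, control 1 was the lowest of the 6, and its probe was well above background on 2 of the 3 control arrays. The difference was 1.06 (SE 0.39, adjusted p = 0.418 by limma), and 0.60 with normexp background correction. The dim Mrpl35, counterpart of bacterial L35, was at -4.16, -3.92 and -3.11 in controls and at -2.29, -2.93 and -3.30 in DECB, and DECB 6 lay below control 3. It was well above background on 2 arrays of each group. Its difference was 0.89 (SE 0.41, limma adjusted p = 0.542), and 0.38 with normexp background correction.

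Mrpl34, counterpart of bacterial L34, was printed in 10 spots, whose SD within an array was 0.07 to 0.15. It was at 3.14, 2.70 and 2.50 in controls and at 3.56, 3.12 and 3.57 in DECB, and DECB 5 lay just below control 1 (difference 0.64, SE 0.31, limma adjusted p = 0.581). Mrpl46, which has no bacterial counterpart, was at -0.57, -0.80 and -0.71 against 0.11, -0.48 and -0.01, with no overlap and a difference of 0.56 (SE 0.29). Mrpl37, also specific to mitochondria, was at -0.31, -0.56 and -0.45 against 0.21, -0.23 and 0.27, likewise with no overlap (difference 0.52, SE 0.28). The limma adjusted p was 0.610 in Mrpl46 and 0.638 in Mrpl37.

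Proteins around the exit of the tunnel, through which the new chain leaves towards the inner membrane, had differences of both signs. Mrpl23, a tunnel exit protein with a bacterial counterpart, was at 3.35, 3.29 and 3.11 in controls and at 2.47, 2.63 and 3.02 in DECB. Every DECB array was below every control, and the difference was -0.54 (SE 0.28, limma adjusted p = 0.624). Mrpl45, which helps to fix the ribosome to the inner membrane, was at 1.71, 1.27 and 1.31 against 1.90, 1.74 and 2.29, with all DECB arrays above and a difference of 0.55 (limma adjusted p = 0.642). The other exit proteins were Mrpl22 (0.31), Mrpl47 (0.23), Mrpl17 (0.02) and Mrpl24 (-0.08), and the median over the 6 was 0.13. The 95% interval of each of the 6 included 0.

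The stalk recruits translation factors. Its genes Mrpl10, Mrpl11 and Mrpl12 had differences of 0.43, 0.02 and -0.10. Near the centre that forms peptide bonds, Mrpl16 (0.38), Mrpl4 (0.12), Mrpl2 (0.00), Mrpl27 (-0.08) and Mrpl3 (-0.28) had a median of 0.00. Mrpl58, a peptidyl-tRNA hydrolase that rescues stalled ribosomes and became part of the large subunit, had a difference of -0.14. Mrpl44, related to ribonuclease III, also had -0.14. No gene named here passed the test, also at an unadjusted p under 0.05.

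In the small subunit 21 of 29 tested genes had a difference above 0, with a median of 0.19. Mrps22, a protein specific to mitochondria whose loss in people causes a combined oxidative phosphorylation deficiency, was at 0.99, 0.50 and 0.69 in controls and at 1.71, 1.46 and 2.10 in DECB. Every DECB array was above every control, with a difference of 1.03 (SE 0.30, limma adjusted p = 0.273). Mrps27, a pentatricopeptide repeat protein of the small subunit, was at -0.54, -1.13 and -1.07 against -0.04, -0.15 and 0.80. The groups did not overlap, DECB 6 was the highest array, and the difference was 1.12 (SE 0.36, limma adjusted p = 0.337). These are the genes whose upstream stretches with CCGGAAG on either strand are printed above.

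Proteins of the decoding region and the path of the messenger RNA had a median of 0.32 over 5 genes. Mrps11, counterpart of bacterial S11, was at 0.81, 0.18 and 0.30 in controls and at 0.98, 0.79 and 1.15 in DECB, and DECB 5 lay just below control 1 (difference 0.54, SE 0.30, limma adjusted p = 0.658). Mrps5, counterpart of S5, was at 1.03, 1.00 and 1.33 against 1.66, 1.41 and 1.58, with no overlap (0.43, SE 0.27, limma adjusted p = 0.716). Mrps12, counterpart of the decoding protein S12, Mrps7 and Mrps9 had differences of 0.32, 0.12 and -0.19. In the other direction Mrps24, counterpart of S3, was at 3.43, 3.24 and 3.17 in controls and at 2.93, 2.74 and 2.89 in DECB. Its DECB arrays were all below its controls (-0.43, SE 0.26, limma adjusted p = 0.704). So were those of Mrps17 on its brightest probe, at 1.49, 1.44 and 1.48 against 1.19, 1.33 and 1.34 (-0.18). On a second kept probe of Mrps17 the groups overlapped (-0.27), with DECB 6 above all controls.

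The genes Mrps18a, Mrps18b and Mrps18c encode 3 related proteins that take different places in the ribosome. Mrps18b was at 3.87, 3.03 and 2.92 in controls and at 3.74, 3.35 and 4.67 in DECB, so that control 1 lay above DECB 4 and 5 (difference 0.65, SE 0.45, limma adjusted p = 0.775). Without DECB 6 that difference was 0.27. Mrps18a was at 0.97, 0.86 and 0.93 against 1.54, 0.96 and 1.04, and DECB 5 lay just below control 1 (0.26, SE 0.28). It was 0.079 without DECB 4. Mrps18c was at 2.51, 1.75 and 1.75 against 1.91, 1.64 and 2.69, with full overlap and a difference of 0.08 (SE 0.39) that was below 0 without DECB 6. The remaining non-overlapping genes were Mrpl50 (0.49) and Mrps10 (0.32), both above. On a second kept probe of Mrpl50 the groups overlapped (0.27), with DECB 4 and 5 at -0.65 and -0.97 below control 1 at -0.54.

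**Figure D2:**
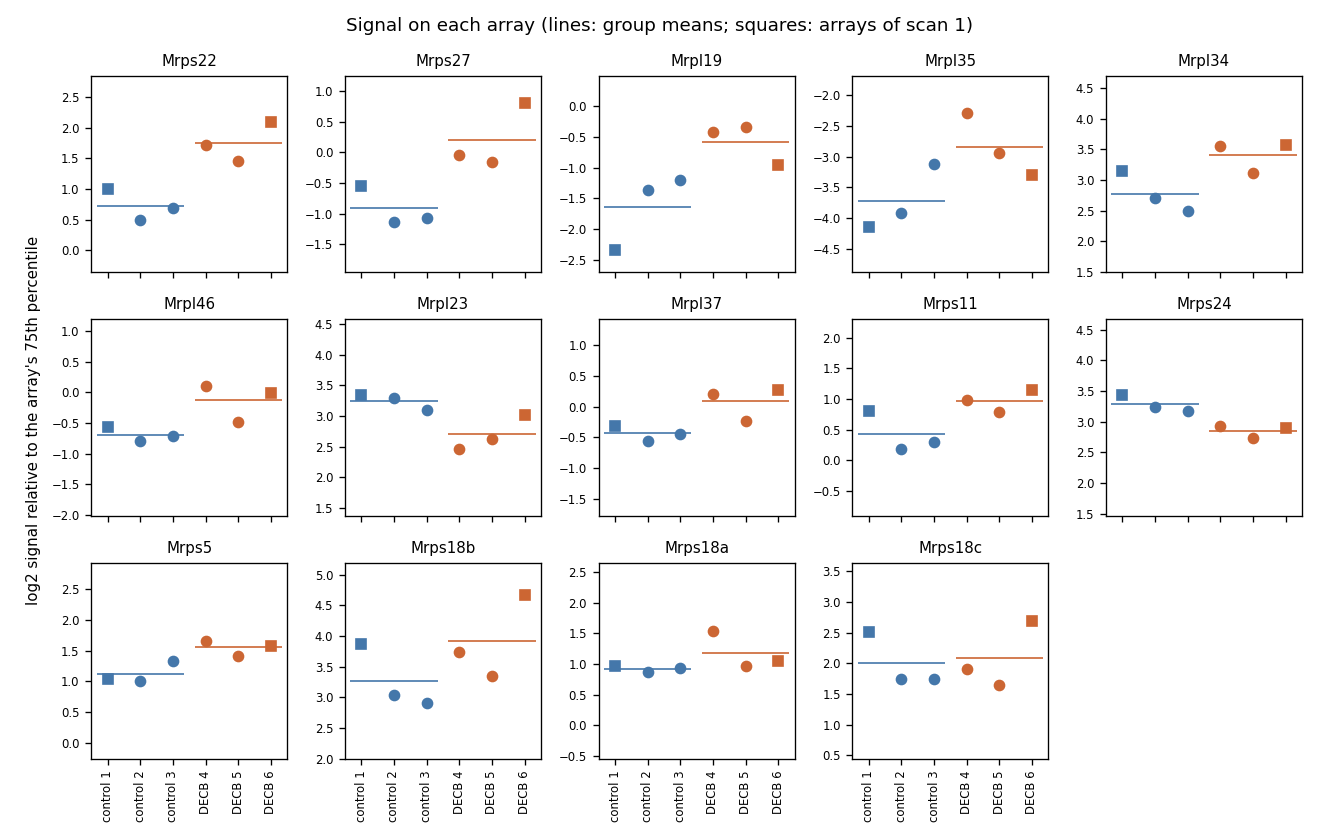
Signal (log2, relative to each array's 75th percentile) on the 6 arrays for 14 genes, controls in blue and DECB in orange. The genes are the 6 with the smallest p in each subunit and the Mrps18 paralogues. Lines are group means and squares the arrays of scan 1, and every panel spans the same range. In Mrps22, Mrps27, Mrpl19, Mrpl46, Mrpl37 and Mrps5 all orange points lie above all blue points, and in Mrpl23 and Mrps24 all lie below.

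The 47 tested genes with a bacterial counterpart had a median difference of 0.12 and the 30 specific to mitochondria 0.13. Of the 12 genes whose arrays did not overlap, 6 were in each class. Among the 47 with a bacterial counterpart 3 lay above and 3 below. Among the 29 specific to mitochondria with a value on every array 6 lay above and 0 below. Over all genes the shares were 7.24% above and 9.40% below. Genes of human combined oxidative phosphorylation deficiency on the list numbered 13, with 7 above 0, 6 below and a median of 0.11. Mrps22 was the one of these 13 with no overlap, against the shares over all genes just given. Mrps14, Mrps16, Mrps25, Mrps34 and Mrpl3, of the same list, had differences of 0.44, 0.22, 0.19, 0.17 and -0.28.

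For most of these genes the arrays differed more by scan than by group. Relative to each gene's control mean, the median level of the 77 genes was 0.29, -0.16 and -0.13 in controls 1 to 3 and -0.00, -0.02 and 0.54 in DECB 4 to 6. Both arrays of scan 1 were thus above the rest of their own group. Control 1 was above the mean of controls 2 and 3 (control 2 alone for Mrpl43) for 60 of 77 genes, and DECB 6 above the mean of DECB 4 and 5 for 62. In 58 genes scan 1 was the higher in both groups, and in 13 the lower in both. The scan difference, averaged over the groups, was larger than the difference between DECB and control in 58 genes. It ran from -1.70 in Mrpl1 to 1.36 in Mrpl55. Mrpl1, whose difference between DECB and control was 0.50 and -0.017 without control 1, shows the pattern on single arrays, where control 1 was at -1.92 and DECB 6 at -1.61, while controls 2 and 3 were at -0.44 and -0.27 and DECB 4 and 5 at 0.32 and 0.15.

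**Figure D3:**
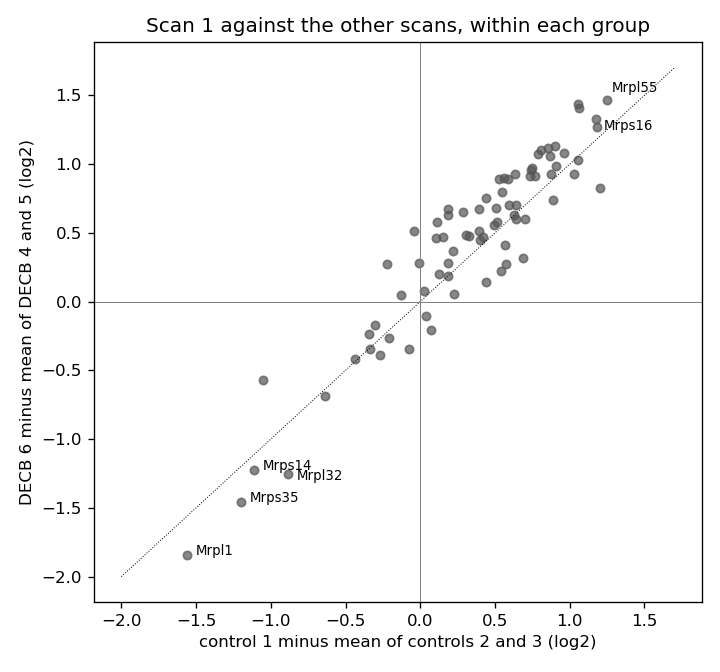
Scan 1 against the other scans for each of 77 genes (log2): control 1 minus the mean of controls 2 and 3 (control 2 alone for Mrpl43) on the horizontal axis, DECB 6 minus the mean of DECB 4 and 5 on the vertical axis, with the line of equality dotted. In 58 genes both values are above 0, and Mrpl1, Mrps35, Mrps14 and Mrpl32 lie far below 0 on both.

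Within scan 1 the median difference between DECB and control was 0.23, and within scan 2 it was 0.16. In 44 genes both within-scan differences were above 0, in 7 both were below, and in 25 they had opposite signs. Mrps22 differed by 1.1 in scan 1 and 1.12 in scan 2, Mrps27 by 1.35 and 1.06, and Mrpl19 by 1.38 and 0.86. Mrpl23 differed by -0.33 and -0.73, and Mrps24 by -0.55 and -0.28. Each within-scan value sets 1 DECB array against 1 or 2 controls and has no test of its own.

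**Figure D4:**
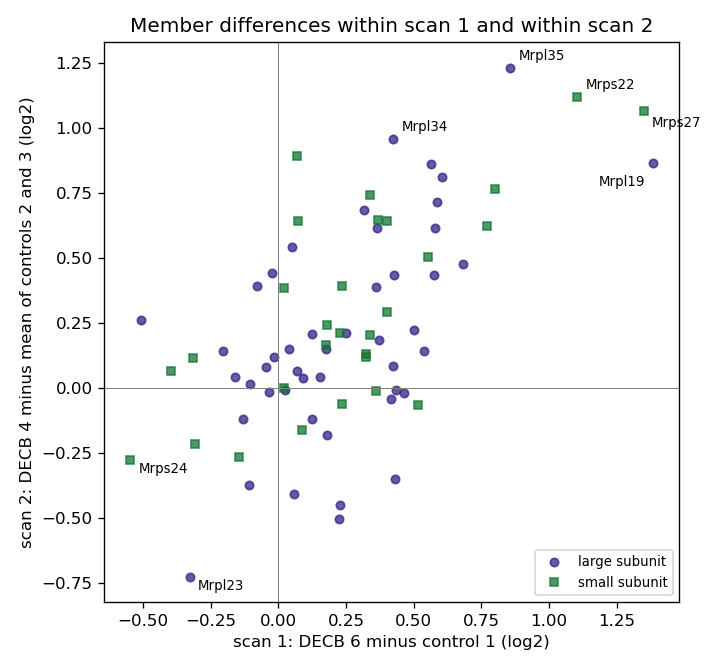
Difference between DECB and control (log2) of 76 genes within scan 1 (horizontal) and within scan 2 (vertical), large subunit as circles and small subunit as squares. Both values are above 0 for 44 genes, among them Mrps22, Mrps27, Mrpl19, Mrpl35 and Mrpl34, and both are below 0 for 7, among them Mrpl23 and Mrps24.

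With the scan as a block in the fit, 3 of 76 genes rose in DECB, against 2.73% of all 14750 genes in that fit, and 0 fell, against 3.92%. They were Mrps27 (1.19, limma adjusted p = 0.0321), Mrps22 (1.11, adjusted p = 0.0331) and Mrpl19 (1.09, adjusted p = 0.0468). DECB 5, alone in its scan, adds nothing to that contrast, and the spread there includes the difference between controls 2 and 3, which correlated at r = 0.992 over genes and may be 1 sample measured again. In the fits without that block no member passed, and the smallest adjusted p was 0.0805, in the fit without scan 1.

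The median of the family turned with 1 array. Without DECB 6 it was -0.034, with -0.077 in the large and -0.0063 in the small subunit, and 35 genes were above 0 and 42 below. Without control 1 it was 0.29. All DECB arrays lay above all controls for 26 of 76 genes (34.2%) without control 1, against 16.7% of all genes in that design, and for 16 (21.1%) without DECB 6, against 16.8%. They lay below for 10 (13.2%) without DECB 6, against 24.4% of all genes, and for 3 without control 1, against 15.8%. These designs hold 5 arrays, where groups separate more often than with 6. Over the settings that tested each gene, the difference was at least 0.86 in Mrps22, 0.82 in Mrps27, 0.60 in Mrpl19 and 0.38 in Mrpl35. These genes were taken for a small p on the same arrays.

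**Figure D5:**
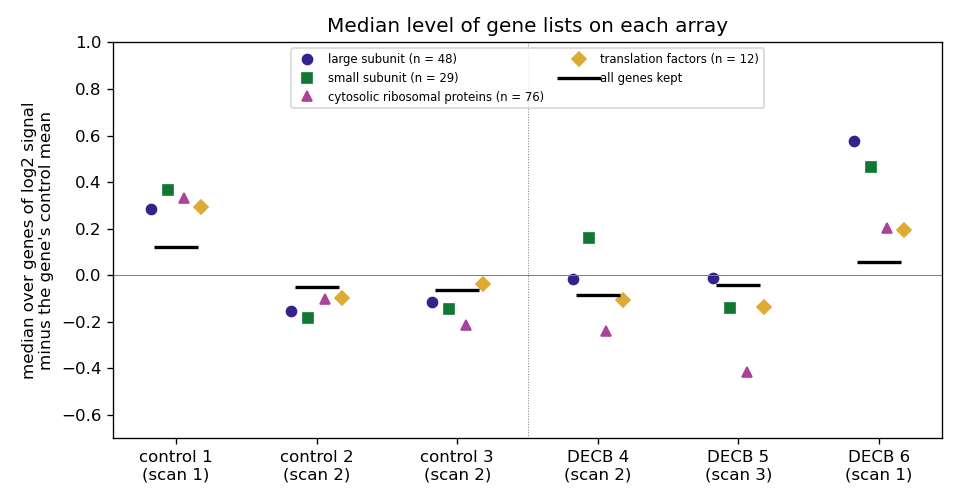
Median over genes of the log2 signal minus the gene's control mean, on each array, for the large and the small subunit genes, cytosolic ribosomal protein genes, mitochondrial translation factors and all genes kept (black bars). The large subunit is at 0.29 in control 1 and 0.58 in DECB 6, the arrays of scan 1, and below 0 on the others.

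Other genes that build, feed or serve the mitochondrial ribosome are given by lists. The 5 subunits with other names (Dap3, Ptcd3, Chchd1, Aurkaip1 and Gadd45gip1) had a median difference of 0.04. Dap3, a GTP-binding small subunit protein, was at 4.08, 3.03 and 3.11 in controls and 2.38, 2.31 and 3.59 in DECB (-0.65), and Gadd45gip1 differed by 0.38. Of 12 mitochondrial translation factors tested, 7 were below 0 and 5 above, with a median of -0.04. Tsfm, the exchange factor of the elongation factor Tufm, differed by 0.73, and the initiation factor Mtif2 by -0.48.

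Among 26 genes of ribosome assembly and ribosomal RNA modification, 16 were above 0 and 10 below, with a median of 0.09. Tfb1m, which methylates the small ribosomal RNA, was at -1.27, -1.21 and -1.09 in controls and -0.17, -0.67 and -0.72 in DECB, with no overlap (0.67, limma adjusted p = 0.50). Eral1, a chaperone of the same RNA, differed by 0.63, also with no overlap. In the other direction Mettl17, which acts in the assembly of the small subunit, differed by -0.85 and the ribosome-binding factor Rbfa by -0.28, both with all DECB arrays below, and Mrm1, which methylates the large ribosomal RNA, by -0.65. Mettl17 was at -2.08, -2.01 and -2.04 in controls and -2.16, -2.21 and -4.29 in DECB, so its difference came mostly from DECB 6. Within scan 2 Mettl17 differed by -0.14. In this list all DECB arrays were above all controls for 3 of 26 genes, against 7.24% of all genes, and below for 2, against 9.40%. Of 13 genes of mitochondrial transcription and messenger stability the median was 0.15. All DECB arrays were below all controls for 3 of these 13, against 9.40% of all genes, and above for 2, against 7.24%. Tfb2m, a transcription initiation factor and relative of Tfb1m, was at 2.12, 1.64 and 1.84 against 0.94, 0.94 and 1.37, with all DECB arrays below (-0.78, limma adjusted p = 0.424). Ptcd2, a pentatricopeptide repeat protein that acts on mitochondrial messengers, differed by 0.71 (limma adjusted p = 0.490). No gene of these 4 lists passed the test. At an unadjusted p under 0.05 there were 2, Tfb2m (lower) and Ptcd2 (higher), against 5.79% of all genes lower and 4.22% higher.

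The cytosolic ribosome served as the nearest comparison. Of its 76 protein genes tested, 14 had a difference above 0 and 62 below, with a median of -0.15. Of these 0 passed the test, also at an unadjusted p under 0.05, where all genes gave 5.79% lower and 4.22% higher. All DECB arrays were below all controls for 3 of the 76 (Rps6, Rpl31 and Rps12), against 9.40% of all genes, and above for 0, against 7.24%. Their median level by array was 0.33, -0.10 and -0.22 in controls and -0.24, -0.42 and 0.20 in DECB, so scan 1 was high here too. The difference between both families was not tested.

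Some of these genes start close to a neighbour on the other strand, and the share of such starts among all genes was not counted. In the RefSeq table of GRCm38.p6, 27 of the 69 genes with a promoter window had a start within 1000 bases of one on the other strand. These formed 26 pairs, and both genes were tested in 21. The transcripts of 1 of the pairs, Mrpl48 and Rab6a, overlapped at their starts. The differences of both were above 0 in 9 of the 21 pairs, both below in 4 and of opposite sign in 8. Mrpl46 and Mrps11, which start 42 bases apart on chromosome 7 around the stretch printed above, differed by 0.56 and 0.54. Mrps27 starts 108 bases from Ptcd2 on chromosome 13, and these differed by 1.12 and 0.71, with no overlap between groups in either gene. Its printed stretch is the whole gap to Ptcd2. Mrps12 shares its start region with Sars2, the mitochondrial seryl-tRNA synthetase (0.32 and 0.54). Mrpl43 shares one with Twnk, the helicase of mitochondrial DNA (-0.08 and -0.47). Mrpl30 differed by 0.07 and its neighbour Mitd1 by 1.06, and Mrpl37 by 0.52 and its neighbour Cyb5rl by -0.59, so that neighbours were also far apart.

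Of the 78 genes, 22 were measured by more than 1 probe, and 19 had more than 1 kept. The probes of one gene gave differences of opposite sign in 5 genes, all of them near 0: Mrpl27 (-0.08 and 0.06), Mrpl43 (-0.08 and 0.08), Mrps33 (-0.08 and 0.15), Mrps23 (-0.01 and 0.13) and Mrps2 (-0.0046 and 0.03). Probes of the same sign could also differ in size. Examples, with the brightest probe first, are Mrpl41 (0.03 and 0.62), Mrpl15 (0.18 and 0.52), Mrps7 (0.12 and 0.40) and Mrpl4 (0.12 and 0.38). Mrpl43 lacked a value on control 3, where its spot was marked as an outlier. Mrps22, Mrps27 and Mrpl19 rest on 1 probe each.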

How the data were processed

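The deposited scanner files come from Agilent Feature Extraction 11.0.1.1, per the file headers, and their intensity values, the processed Cy3 signal, were background-subtracted and spatially detrended with no normalization between arrays. The authors also deposited a table of log2 values, which was set against the scanner values: its columns share a median of 5.34, and once genes were centred each column correlated at -0.04 to 0.03 with its own array. Before centring each column correlated at 0.74 to 0.77 with its own array, so higher values went with higher signal across genes. Its scale and centring stay unknown, and no result above rests on it. In that table the tested members had a median difference between DECB and control of -0.07. There 32 were above 0 and 45 below, and 35 had the sign of the scanner values.

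Control spots and outlier spots were left out, spots of a probe averaged, and each array's 75th percentile of log2 signal over 43020 spots subtracted. Of 39429 probes, the 25418 well above background on 3 or more of the 6 arrays were kept, and the brightest stood for its gene. Names came from RefSeq accessions matched to GRCm38.p6, which left 12195 probes unnamed. The array design gives another build (per the file headers), so coordinates are those of the RefSeq windows alone. Tests used limma 3.58.1 in R 4.3.3 (lmFit and eBayes, both directions), p-values were adjusted by Benjamini-Hochberg across the whole table, and the scripts were checked on simulated data. An exact permutation test with 3 arrays a group cannot go below p = 0.1, and the number of arrays limits the precision.

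Genes given array by array were the 6 with the smallest p in each subunit and the Mrps18 paralogues, beside examples chosen for their role, overlap or neighbour after their values were seen. The members and lists were chosen with earlier results of these data known. Replicate numbers are not shared between the groups. Alternatives covered background correction, scaling, the filter, the probe for each gene, the scan, and leaving out each array.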

Additional observations from a re-analysis of the deposited data

How the results depend on the processing

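No paired analysis was possible because the groups share no replicate numbers. The count of all genes past the threshold, 69, was 39 with quantile normalization, 112 with median centring, 981 with the scan as a block, 2 with controls 2 and 3 averaged and 0 without the filter on dim probes, where 1257 had an unadjusted p under 0.05. Leaving out 1 array gave 0 to 53 such genes. Mitochondrial ribosomal protein genes past the threshold were 3 higher with the scan as a block (against 2.73% of all genes) and 0 in each other fit. At an unadjusted p under 0.05, 1 to 9 were higher in those other fits and 0 or 1 lower. The 9 of 76, with 1 lower, were in the fit without scan 1, where 3407 of all 14753 genes reached that level in either direction. The 1 was in the fit without control 2, where 853 of 14800 did. Those with all DECB arrays above all controls, 9 of 76 (11.8%, against 7.24% of all genes), were 15 with normexp background correction (19.7%, against 5.20%) and 33 without scan 1 (43.4%, against 26.5%, with 2 arrays a group). They were 9 to 26 with 1 array left out, where all genes gave 8.40% to 16.8%. Those below, 3 (3.95%, against 9.40%), were 10 without scan 1 (13.2%, against 31.1%) and 3 to 10 with 1 array left out, where all genes gave 10.9% to 24.4%. With 1 array left out the median difference was -0.034 to 0.29 over the 76 or 77 genes with a value, -0.077 to 0.25 in the large subunit and -0.0063 to 0.32 in the small, the lowest each time without DECB 6. Under the other alternatives all 3 medians stayed above 0. Mrps18c was at -0.050 with controls 2 and 3 averaged, and at -0.23 (without DECB 6) to 0.33 with 1 array left out, below 0 also without control 2 or control 3. The other 13 genes that the rule for array-by-array values took (6 with the smallest p in each subunit and the Mrps18 paralogues) had the same sign in all settings that tested them. The strict filter on dim probes left out Mrpl19 and Mrpl35. All 13 but Mrps18a were taken for a small p on these same arrays, so their constant sign is no independent support. Mrpl1, named for its scan difference, was at -0.017 without control 1. The causes were not tested. Scan 1 is dim, with a 75th percentile of 3.75 to 4.04 times background, which limits dim genes such as Mrpl35 and Mrpl19.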
